A study of Mus musculus with 21 samples.

Results

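Cells depleted of Hdac1 were compared directly with cells depleted of Hdac2 by RNA-seq, using 6 of the 21 libraries of the series. The cells are SMB21, a line of mouse medulloblastoma of the sonic hedgehog (SHH) type. The members are the 3 libraries labelled shHdac1 and the 3 labelled shHdac2, taken by their labels. Both groups received a virus that carries a short hairpin RNA (shRNA), against Hdac1 or against Hdac2, and both were then kept in puromycin, so the virus and the drug are common to all 6 libraries. Medium for both was DMEM/F12 with B-27. A hairpin against luciferase (shLuc, 3 libraries with the same virus and puromycin) serves here to give a control level, and cells given the histone deacetylase inhibitor quisinostat (JNJ) or its solvent DMSO give a comparison that shares no library with the knockdowns. The labels give neither the hairpin sequences nor their number per gene nor the time after infection, so loss of the targeted gene and other effects of its hairpin cannot be told apart. The labels do not say whether the replicates were separate cultures. The p-values therefore reflect how far the libraries of a group differ, and part of that may be technical.

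HDAC1 and HDAC2 are closely related class I histone deacetylases. They remove acetyl groups from histone tails and other proteins, mostly as the catalytic pair inside the SIN3, NuRD, CoREST and MiDAC co-repressor complexes, and in many cell types one can stand in for the other. In the developing brain both restrain and permit steps of neuronal differentiation. In SHH medulloblastoma, a tumour of cerebellar granule neuron progenitors, deacetylation of GLI proteins by HDAC1 is known to favour their activity as transcription factors. The comparison asks how loss of one paralog differs from loss of the other.

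The 6 libraries held 23808461 to 31907047 counted reads. Values are CPM, read counts scaled to library size with TMM factors, and a log2 difference is shHdac1 over shHdac2, so that a positive value means a higher level in shHdac1. Replicate 3 of both groups stood apart from the other libraries. The first principal component of the log2 CPM values (53.1% of the variance) placed the replicate 3 libraries at -46.26 and -30.57 and the other 4 at 13.49 to 24.86, while the second (33.3%) separated shHdac1 (9.854 to 27.95) from shHdac2 (-23.58 to -17.83). Because of this, calls are also given from a second fit with the replicate number as a block and, for the total and some genes, from a fit of the 4 libraries numbered 1 and 2.

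**Figure D1:**
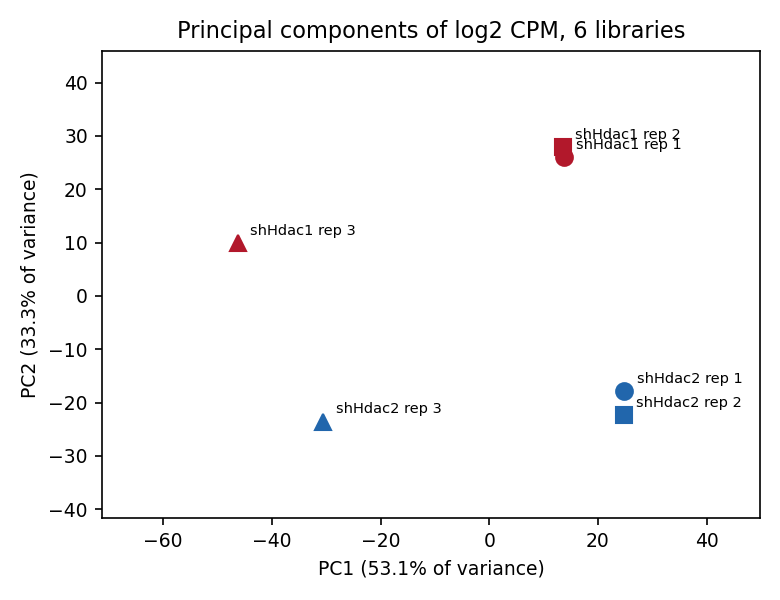
The first and second principal components of log2 CPM, with 1 point per library and its group and replicate marked. The replicate 3 libraries of both groups lie at -46.26 and -30.57 on the first component, and the second separates the shHdac1 from the shHdac2 libraries.

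The targeted genes came first as a check of the labels. Hdac1 was at 32.4, 28.4 and 30.4 CPM in shHdac1 and 99.4, 102 and 108 CPM in shHdac2. All 3 shHdac1 libraries lay far below all shHdac2 libraries, and the log2 difference was -1.76 (SE 0.0768, adjusted p = 0.000668, edgeR quasi-likelihood test with Benjamini-Hochberg adjustment), a 3.39-fold lower level. Hdac2 was at 324, 334 and 301 CPM in shHdac1 and 49.2, 48.1 and 53.8 CPM in shHdac2. Here the shHdac2 libraries were the low ones, again with no overlap, at a log2 difference of 2.67 (SE 0.0769, edgeR adjusted p = 0.000122) or 6.34-fold. In both cases the measured RNA matched the label of the library. The control hairpin left both transcripts near the level of the other knockdown, with Hdac1 at 88.8, 94.8 and 101 CPM and Hdac2 at 309, 301 and 344 CPM in shLuc.

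Neither knockdown was accompanied by a detected change of the untargeted paralog. Relative to shLuc, Hdac2 had a log2 difference of 0.01 in shHdac1 (edgeR adjusted p = 0.977), and Hdac1 had 0.12 in shHdac2 (edgeR adjusted p = 0.533). The targeted genes had -1.63 for Hdac1 in shHdac1 (edgeR adjusted p = 0.000165) and -2.66 for Hdac2 in shHdac2 (edgeR adjusted p = 3.49e-06). The log2 fall of Hdac2 was the wider, a difference that was not tested. In the GENCODE M21 transcripts, none of the 1964 windows of 75 bases, the read length, of Hdac1 was shared with the 4156 windows of Hdac2, and the longest run in common was 17 bases. The other class I enzymes were not called. Hdac3, the catalytic subunit of the NCoR complexes, was at 128, 124 and 133 CPM in shHdac1 and 130, 134 and 131 CPM in shHdac2, with overlapping groups and a log2 difference of -0.04 (SE 0.0561, edgeR adjusted p = 0.779). Hdac8 had 0.15 (SE 0.0896, edgeR adjusted p = 0.434). In shLuc, Hdac3 was at 137, 136 and 144 CPM, above all 6 knockdown libraries, and Hdac8 at 20.2, 20.7 and 17.7 CPM, below all 6, though neither passed against shLuc in either knockdown (edgeR adjusted p = 0.588 and 0.623 for Hdac3, 0.181 and 0.353 for Hdac8, in shHdac1 and shHdac2).

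**Figure D2:**
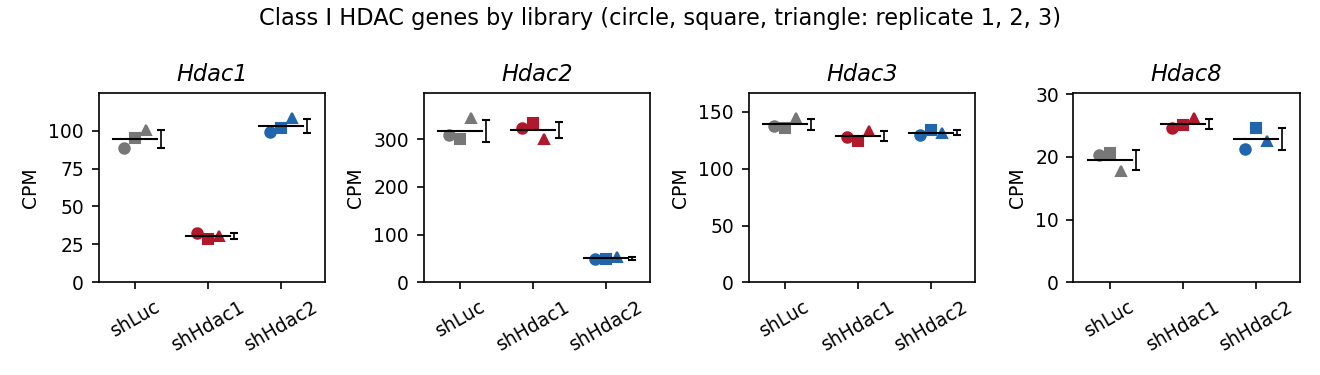
CPM (linear axis) of the 4 class I HDAC genes in shLuc, shHdac1 and shHdac2, with 1 point per library and the replicate shown by its symbol. Hdac1 is low in the shHdac1 libraries alone (28.4 to 32.4 CPM) and Hdac2 in the shHdac2 libraries alone (48.1 to 53.8 CPM), while Hdac3 and Hdac8 overlap between the knockdowns. In shLuc Hdac3 is above and Hdac8 below every knockdown library.

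Across the 13429 genes tested, 603 (4.49%) differed at an adjusted p under 0.05. Of these, 241 (1.79%) were higher in shHdac1 and 362 (2.70%) were higher in shHdac2. Large differences were more often on the shHdac2 side, where 130 of the called genes were at least 2-fold higher in shHdac2 against 19 that were at least 2-fold higher in shHdac1. The median size of the difference among called genes was 0.65 on the log2 scale. All 603 called genes had groups that did not overlap, as had 3556 (26.5%) of all tested genes. The number of calls differed widely between fits. With the replicate number as a block, 4086 genes (30.4%) were called, 1881 (14.0%) higher in shHdac1 and 2205 (16.4%) higher in shHdac2. Without replicate 3 of both groups, 4316 genes (32.0%) were called. All 603 genes were called in the same direction in each of these fits, which reuse libraries of the first. The fit without replicate 3 keeps the closest libraries of each group. Their log2 CPM values correlated at 0.9968 in shHdac1 and 0.9951 in shHdac2. Leaving out a single library gave 823 calls without shHdac1 replicate 3 and 622 without shHdac2 replicate 3. Without shHdac1 replicate 1 or 2 there were 12 each, without shHdac2 replicate 1 there were 11 and without shHdac2 replicate 2 there were 14. In those 4 fits the group that lost a library kept 1 of replicates 1 and 2 beside replicate 3.

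The genes higher in shHdac2 were spread over all expression levels, and those higher in shHdac1 were mostly well expressed. The genes were put in 4 equal bins by their mean over the 6 libraries. In the lowest bin (0.254 to 7.84 CPM), 0.268% were called higher in shHdac1 and 2.59% higher in shHdac2. In the highest bin (84.4 to 6620 CPM) the shares were 2.98% and 2.06%. A low mean leaves fewer counts to call a difference from, in either direction. The median log2 difference of all genes was -0.14 in the lowest bin, and 0.015, 0.0331 and 0.0268 in the bins above it.

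**Figure D3:**
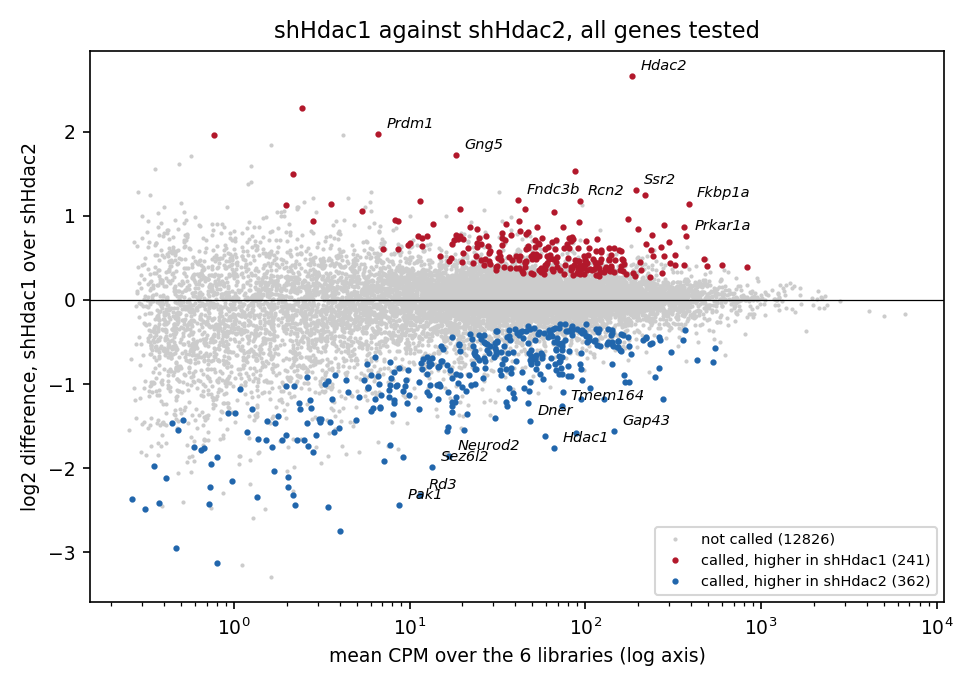
Log2 difference, shHdac1 over shHdac2, against mean CPM over the 6 libraries (log axis) for the 13429 genes tested, with the 241 genes called higher in shHdac1 and the 362 called higher in shHdac2 in colour. The widest differences point downwards, to genes higher in shHdac2, apart from Hdac2 at the top.

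Only 11 genes were called in all 6 fits that left out a single library. They include Hdac1, Hdac2, Gng5, Rcn2, Ssr2, Fndc3b, Tmem164, Dner and Rd3, which are named by the rule given with the methods, and Gprin1, which was chosen after its values were seen. Hdac2 apart, 4 of them were higher in shHdac1. Gng5 encodes a gamma subunit of heterotrimeric G proteins and was at 28.9, 28.2 and 27.4 CPM in shHdac1 and 7.95, 8.86 and 8.84 CPM in shHdac2. The shHdac1 libraries were high and the groups were far apart, with a log2 difference of 1.72 (SE 0.0935, edgeR adjusted p = 0.00114). Rcn2, a calcium-binding protein of the endoplasmic reticulum, was at 135, 128 and 124 CPM in shHdac1 and 55.4, 57.1 and 58.8 CPM in shHdac2. Its groups did not overlap and differed by 1.18 (SE 0.0622, edgeR adjusted p = 0.00111). Ssr2, a subunit of the translocon-associated protein complex, was at 292, 288 and 249 CPM in shHdac1 and 108, 118 and 109.6 CPM in shHdac2, with all shHdac1 libraries above all shHdac2 libraries. Its log2 difference was 1.31 (SE 0.083, edgeR adjusted p = 0.00244). Fndc3b, a membrane protein with fibronectin type III domains, was at 57.1, 54.98 and 60.6 CPM in shHdac1 and 24.6, 25.7 and 25.5 CPM in shHdac2, again without overlap, with a log2 difference of 1.19 (SE 0.0704, edgeR adjusted p = 0.00175). Over the fits without 1 library, the adjusted p of these 4 genes was 0.00228 to 0.0444.

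In the shLuc libraries these 4 genes were mostly near their level in shHdac1. Gng5 was at 24.4, 24.2 and 31.8 CPM, Rcn2 at 131, 141 and 151 CPM and Ssr2 at 237, 255 and 266 CPM in shLuc. Fndc3b was at 60.3, 57.9 and 35.2 CPM, and its shLuc replicate 3 lay between the knockdowns. In the fit of all 9 shRNA libraries, 0.154% of 13612 genes were higher and 0.595% lower in shHdac1 than in shLuc, and 0.654% were higher and 1.03% lower in shHdac2. Both comparisons use the same shLuc libraries. For Gng5 the log2 difference from shLuc was 0.08 in shHdac1 (edgeR adjusted p = 0.889) and -1.65 in shHdac2 (edgeR adjusted p = 0.0019). For Rcn2 it was -0.12 (edgeR adjusted p = 0.611) and -1.31 (edgeR adjusted p = 0.000292), and for Ssr2 0.14 (edgeR adjusted p = 0.612) and -1.18 (edgeR adjusted p = 0.00138). In each of these the shHdac2 libraries were the ones that passed the test against shLuc.

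The rest of the 11, Hdac1 among them, were higher in shHdac2. Tmem164, a transmembrane protein, was at 43.5, 44 and 43.4 CPM in shHdac1 and 105, 103 and 106 CPM in shHdac2. The libraries within each group were almost equal, and the log2 difference was -1.27 (SE 0.0557, edgeR adjusted p = 0.000668). Dner, a neuronal transmembrane protein with EGF-like repeats that is related to Notch ligands, was at 25.8, 24.9 and 27.01 CPM in shHdac1 and 67.6, 74.2 and 70.01 CPM in shHdac2. Its groups were far apart, with a log2 difference of -1.45 (SE 0.0717, edgeR adjusted p = 0.00109). Rd3, known as a regulator of guanylate cyclase in photoreceptors, was at 3.99, 3.59 and 3.902 CPM in shHdac1 and 18.3, 20.8 and 18.3 CPM in shHdac2, with every shHdac2 library above every shHdac1 library and a log2 difference of -2.32 (SE 0.122, edgeR adjusted p = 0.00111). Gprin1, a growth cone protein that promotes neurite outgrowth, was at 56.6, 56.4 and 53.5 CPM in shHdac1 and 101, 108 and 104 CPM in shHdac2, and its groups differed by -0.91 (SE 0.0618, edgeR adjusted p = 0.00316). Over the fits without 1 library, the adjusted p of Tmem164, Dner, Rd3 and Gprin1 was 0.00228 to 0.0431.

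Against shLuc these genes did not form a single pattern. Tmem164 was at 87.4, 82.6 and 98.3 CPM in shLuc and passed the test in shHdac1, at -1.03 (edgeR adjusted p = 0.00285), with 0.23 in shHdac2 (edgeR adjusted p = 0.207). Gprin1 likewise had -0.65 in shHdac1 (edgeR adjusted p = 0.0121) and 0.25 in shHdac2 (edgeR adjusted p = 0.148). Without shLuc replicate 3 both also passed in shHdac2 (edgeR adjusted p = 0.021 for Tmem164 and 0.0264 for Gprin1). Rd3 passed on the other side. It was at 6.27, 5.94 and 4.67 CPM in shLuc, with -0.55 in shHdac1 (edgeR adjusted p = 0.188, or 0.0185 without shLuc replicate 3) and 1.77 in shHdac2 (edgeR adjusted p = 0.00236). Dner lay between the knockdowns in shLuc replicates 1 and 2 and near shHdac1 in replicate 3, at 60.8, 56.96 and 31.9 CPM, and passed against shLuc in neither (-0.94, edgeR adjusted p = 0.0904, and 0.50, edgeR adjusted p = 0.273). Without shLuc replicate 3 it passed in shHdac1 (edgeR adjusted p = 0.00118). Here and below, fits without shLuc replicate 3 kept replicate 3 of both knockdowns and had no block. Number 3 is then in the knockdowns alone, and its part in these values was not tested.

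The bases before the start of 4 of the genes are shown because these genes differ strongly in opposite directions between the knockdowns. Gng5 and Rcn2 were higher in shHdac1, and Rd3 and Neurod2, a neuronal transcription factor described further on, were higher in shHdac2. The 250 bases upstream of the start were taken from RefSeq on GRCm38.p6, at chr3:146499586-146499835 (plus strand) for Gng5, chr9:56041595-56041844 (plus strand) for Rcn2, chr11:98329646-98329895 (minus strand) for Neurod2 and chr1:191977120-191977369 (plus strand) for Rd3, for which the first of 2 listed starts was used. Capitals mark matches, on either strand, to the GC box GGGCGG, which SP1-family factors bind, to CCAAT, and to CAGATG, an E-box of the NeuroD type.
Gng5: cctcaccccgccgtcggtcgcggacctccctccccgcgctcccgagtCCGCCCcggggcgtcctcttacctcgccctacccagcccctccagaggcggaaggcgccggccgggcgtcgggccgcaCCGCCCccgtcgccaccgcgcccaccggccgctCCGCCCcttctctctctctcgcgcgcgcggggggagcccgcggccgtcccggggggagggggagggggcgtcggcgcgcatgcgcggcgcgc
Rcn2: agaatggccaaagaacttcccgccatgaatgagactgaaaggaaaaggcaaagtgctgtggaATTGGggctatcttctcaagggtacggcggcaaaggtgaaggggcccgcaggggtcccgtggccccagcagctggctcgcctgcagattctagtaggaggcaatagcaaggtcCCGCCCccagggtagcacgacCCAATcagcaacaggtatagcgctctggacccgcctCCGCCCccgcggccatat
Neurod2: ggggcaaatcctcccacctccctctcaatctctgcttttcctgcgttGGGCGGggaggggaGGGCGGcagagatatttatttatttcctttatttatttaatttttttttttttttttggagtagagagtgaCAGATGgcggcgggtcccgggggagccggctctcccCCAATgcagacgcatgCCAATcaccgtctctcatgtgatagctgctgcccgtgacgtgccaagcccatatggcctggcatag
Rd3: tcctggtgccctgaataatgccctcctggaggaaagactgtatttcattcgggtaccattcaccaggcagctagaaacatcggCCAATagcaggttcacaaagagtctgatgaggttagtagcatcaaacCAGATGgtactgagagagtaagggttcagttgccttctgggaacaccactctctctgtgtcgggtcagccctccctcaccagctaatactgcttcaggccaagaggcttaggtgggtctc
The Gng5 stretch held 3 GC boxes and the Rcn2 stretch 2 GC boxes and 2 CCAAT matches. The Neurod2 stretch held 2 GC boxes, 2 CCAAT matches and 1 E-box, and the Rd3 stretch 1 CCAAT match and 1 E-box. Among 32851 promoters of the same length, 32.7% held GGGCGG, 33.8% CCAAT and 14.4% CAGATG, so none of the 3 is rare. A match is a string of letters and not a binding site.

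Further genes higher in shHdac1 by a large margin belonged to no single class. Prdm1 encodes the transcriptional repressor BLIMP1 and was at 7.22, 8.31 and 16.2 CPM in shHdac1 and 2.31, 1.98 and 3.83 CPM in shHdac2. Replicate 3 was the highest library in both groups, and the log2 difference was 1.97 (SE 0.4, edgeR adjusted p = 0.0473, 1.18e-05 with the block). Fkbp1a, the prolyl isomerase FKBP12 that binds rapamycin, was at 489, 494 and 618 CPM in shHdac1 and 207, 227 and 291 CPM in shHdac2. All shHdac1 libraries were above all shHdac2 libraries, at a log2 difference of 1.14 (SE 0.155, edgeR adjusted p = 0.0187). Vldlr, a receptor for reelin and lipoproteins, was at 283, 290.4 and 349.7 CPM in shHdac1 and 123, 111 and 155 CPM in shHdac2, with a log2 difference of 1.25 (SE 0.146, edgeR adjusted p = 0.0124). Runx2, a transcription factor best known from bone, was at 62.8, 62.2 and 60.5 CPM in shHdac1 and 30.6, 26.3 and 30.6 CPM in shHdac2 and also had separate groups, with 1.08 (SE 0.0818, edgeR adjusted p = 0.00481). Mpp1, a membrane scaffold protein, had 1.08 (edgeR adjusted p = 0.00898), and Tmem150a had 1.06 (edgeR adjusted p = 0.025). Hamp2, a hepcidin gene with a close paralog between which reads may be split, had 1.54 (edgeR adjusted p = 0.012) and is uncertain for that reason. Without shHdac1 replicate 1 or 2 or shHdac2 replicate 1 or 2, the adjusted p of Prdm1, Fkbp1a, Vldlr, Mpp1, Tmem150a and Hamp2 was 0.058 to 0.186, and each of these calls was lost. Runx2 lost its call without shHdac1 replicate 1 (0.0651), shHdac1 replicate 2 (0.0629) and shHdac2 replicate 1 (0.0555).

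In shLuc, Fkbp1a (405, 412 and 595 CPM) and Vldlr (248, 235 and 295 CPM) were nearer to shHdac1, and Prdm1 (3.07, 2.702 and 1.56 CPM) was nearer to shHdac2. Vldlr had a log2 difference from shLuc of 0.25 in shHdac1 (edgeR adjusted p = 0.561) and -1.001 in shHdac2 (edgeR adjusted p = 0.019). Prdm1 had 2.12 (edgeR adjusted p = 0.058, or 0.0328 without shLuc replicate 3) and 0.14 (edgeR adjusted p = 0.907). Runx2, at 47.2, 44.9 and 31.9 CPM in shLuc, lay between the knockdowns and passed in neither (edgeR adjusted p = 0.116 and 0.13), and in both without shLuc replicate 3 (0.0205 and 0.00915).

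The widest differences in the other direction were likewise in genes of varied kinds. Pak1, a kinase that acts downstream of the GTPases RAC1 and CDC42, was at 3.301, 2.59 and 2.27 CPM in shHdac1 and 16.9, 20.2 and 7.304 CPM in shHdac2. Its shHdac2 libraries were all higher, replicate 3 least so, with a log2 difference of -2.44 (SE 0.395, edgeR adjusted p = 0.0268). Sez6l2, a neuronal membrane protein, was at 5.76, 5.85 and 4.67 CPM in shHdac1 and 25.7, 24.6 and 14.2 CPM in shHdac2, with -1.99 (SE 0.248, edgeR adjusted p = 0.0149). Chgb, a chromogranin of dense-core secretory granules, was at 3.71, 3.76 and 4.34 CPM in shHdac1 and 16.5, 16.7 and 9.73 CPM in shHdac2, and again replicate 3 was the lowest of the shHdac2 libraries while still above shHdac1. Its log2 difference was -1.86 (SE 0.238, edgeR adjusted p = 0.0161). Pnmal1, of the paraneoplastic antigen family, had -1.91 (edgeR adjusted p = 0.0244), Cxadr, a cell adhesion protein that serves as the coxsackievirus and adenovirus receptor, -1.62 (edgeR adjusted p = 0.0269), and Dock10, a guanine nucleotide exchange factor, -1.56 (edgeR adjusted p = 0.0234). Ndrg1, a gene raised by hypoxia, was at 48.4, 40.4 and 43.2 CPM in shHdac1 and 134, 184 and 77.7 CPM in shHdac2, with -1.59 (edgeR adjusted p = 0.0378). The adjusted p of these 7 genes was 0.081 to 0.164 without replicate 1 or 2 of either group, so that all 7 calls were lost. Ndrg1 was also lost without shHdac1 replicate 3 (0.0531).

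Levels in shLuc placed these genes differently. Cxadr was at 30.9, 30.8 and 19.04 CPM in shLuc, close to shHdac1, and had a log2 difference from shLuc of 1.73 in shHdac2 (edgeR adjusted p = 0.0221) and 0.12 in shHdac1 (edgeR adjusted p = 0.926). Sez6l2 was at 19.4, 19.8 and 3.66 CPM, with replicates 1 and 2 within the range of shHdac2 and replicate 3 below every shHdac1 library. Ndrg1 was at 39.7, 40.9 and 5.45 CPM, with replicate 3 far below every other library. For Sez6l2 and Ndrg1 neither knockdown passed against shLuc with all libraries in the fit (edgeR adjusted p = 0.315 in shHdac1 and 0.64 in shHdac2 for Sez6l2, 0.768 and 0.122 for Ndrg1). Without shLuc replicate 3, Sez6l2 passed in shHdac1 at -1.85 (edgeR adjusted p = 0.00713) and Ndrg1 in shHdac2 at 1.72 (edgeR adjusted p = 0.0208).

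Genes of neuronal differentiation and the synapse were the list with the most calls. Of 38 genes in the list 34 were tested, and 8 were called higher in shHdac2 and none higher in shHdac1, against 2.70% and 1.79% of all genes. With the block, 22 were called higher in shHdac2 and 2 higher in shHdac1 (Syn2 and Vamp2, both of synaptic vesicles), against 16.4% and 14.0% of all genes. The median log2 difference of the 34 was -0.468, and that of all genes tested was 0.00968. The 8 called genes were Gap43 and Syn1, named by the rule, and Tubb3, Dcx, Syp, Camk4, Stmn4 and Mapt, chosen after their values were seen.

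Gap43, a growth cone protein of axons, was at 80.8, 73.9 and 67.3 CPM in shHdac1 and 216, 249.6 and 187 CPM in shHdac2. The lowest shHdac2 library was more than double the highest shHdac1 library, and the log2 difference was -1.56 (SE 0.124, edgeR adjusted p = 0.0054). Syn1, the synaptic vesicle protein synapsin I, was at 22.9, 22.9 and 24.7 CPM in shHdac1 and 41.3, 45 and 39.3 CPM in shHdac2. These groups also did not overlap, with -0.83 (SE 0.0839, edgeR adjusted p = 0.0104). Tubb3, the neuronal beta-tubulin, was at 63.9, 62.6 and 47.2 CPM in shHdac1 and 134, 149.8 and 107 CPM in shHdac2, and Dcx, the microtubule-binding protein doublecortin of migrating young neurons, at 76.1, 78.3 and 54.99 CPM in shHdac1 and 151, 154 and 126 CPM in shHdac2. In both, replicate 3 was the lowest library of its group and the groups stayed apart. The log2 differences were -1.17 for Tubb3 (SE 0.163, edgeR adjusted p = 0.0189) and -1.05 for Dcx (SE 0.153, edgeR adjusted p = 0.0207). Mapt, the microtubule-associated protein tau, was at 21.5, 18.3 and 32.8 CPM in shHdac1 and 57.8, 60.4 and 45.3 CPM in shHdac2, and here replicate 3 brought the groups closest, with -1.17 (SE 0.23, edgeR adjusted p = 0.0448). Camk4, a calcium-dependent kinase of granule neurons, had -1.27 (edgeR adjusted p = 0.0278), Stmn4, a stathmin of neurons, -1.51 (edgeR adjusted p = 0.0297), and Syp, the vesicle protein synaptophysin, -0.60 (edgeR adjusted p = 0.0232). The adjusted p of Syn1 was 0.0664 to 0.0821 without replicate 1 or 2 of either group. Gap43 lost its call without shHdac1 replicate 2 (0.0629) and without shHdac2 replicate 1 (0.0557). The other 6 genes had 0.0889 to 0.175 in these 4 fits.

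**Figure D4:**
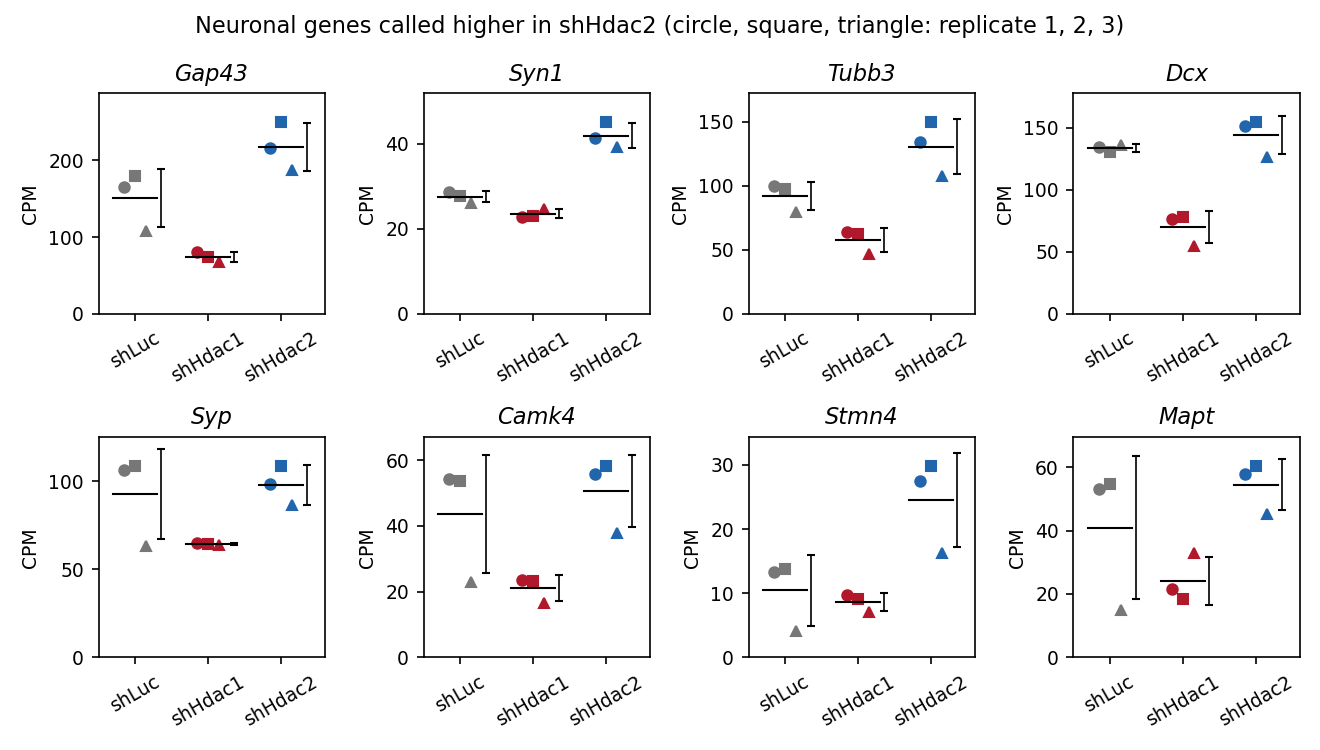
CPM (linear axis) of the 8 called genes of neuronal differentiation and the synapse in shLuc, shHdac1 and shHdac2, with 1 point per library and the replicate shown by its symbol. In each panel the 3 shHdac2 libraries lie above the 3 shHdac1 libraries, and shLuc replicate 3 is often below the other shLuc libraries, as for Mapt at 14.8 CPM.

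The position of shLuc differed among these neuronal genes. Dcx was at 135, 130.1 and 136 CPM in shLuc and passed against it in shHdac1, at -0.93 (edgeR adjusted p = 0.0267), with 0.11 in shHdac2 (edgeR adjusted p = 0.76). Gap43 passed in shHdac1 too, at -1.02 (edgeR adjusted p = 0.0484), with 0.53 in shHdac2 (edgeR adjusted p = 0.203). Syn1 was at 28.7, 27.6 and 26.1 CPM and passed in shHdac2 instead, at 0.61 (edgeR adjusted p = 0.0206), with -0.22 in shHdac1 (edgeR adjusted p = 0.384). Tubb3, at 99.6, 97.5 and 79.8 CPM, lay between the knockdowns and passed in neither (-0.67, edgeR adjusted p = 0.113, and 0.50, edgeR adjusted p = 0.167). Without shLuc replicate 3 it passed in shHdac1 (edgeR adjusted p = 0.0279). In bulk RNA, fewer cells of a type and less RNA per cell cannot be told apart.

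Genes of the cerebellar granule lineage included 3 of 23 that were called higher in shHdac2 and none called higher in shHdac1, against 2.70% and 1.79% of all genes. With the block, 10 were higher in shHdac2 and 3 higher in shHdac1, against 16.4% and 14.0% of all genes, and the list's median log2 difference was -0.12. Neurod2, a basic helix-loop-helix factor of maturing neurons whose upstream bases are shown above, was at 8.31, 7.18 and 6.37 CPM in shHdac1 and 28.3, 33.4 and 17.4 CPM in shHdac2. The groups did not overlap, though shHdac2 replicate 3 was well below its fellows, and the log2 difference was -1.85 (SE 0.253, edgeR adjusted p = 0.0188). In shLuc Neurod2 was at 23.4, 22.9 and 14.7 CPM. Against shLuc it passed in shHdac1, at -1.47 (edgeR adjusted p = 0.0484), with 0.37 in shHdac2 (edgeR adjusted p = 0.536). Neurod1, its close relative in differentiating granule neurons, was at 49.4, 54.4 and 44.5 CPM in shHdac1 and 86.6, 101 and 75.9 CPM in shHdac2, with -0.83 (SE 0.125, edgeR adjusted p = 0.0224). Meis1, a homeobox factor of the granule lineage chosen after its values were seen, had a smaller difference of -0.37 (SE 0.0669, edgeR adjusted p = 0.0361). Without replicate 1 or 2 of either group the adjusted p of Neurod1, Neurod2 and Meis1 was 0.081 to 0.153. Atoh1, which maintains granule neuron progenitors, was at 187, 175 and 109.9 CPM in shHdac1 and 143, 165 and 136 CPM in shHdac2. Its groups overlapped and the log2 difference was 0.09 (SE 0.2, edgeR adjusted p = 0.852, 0.674 with the block), although it passed without replicate 3 of both groups (edgeR adjusted p = 0.0278). Both knockdowns were below shLuc for Atoh1 (327, 315 and 227 CPM), a difference that passed with neither hairpin when all libraries were used (edgeR adjusted p = 0.112 for shHdac1 and 0.0592 for shHdac2) and with both when shLuc replicate 3 was left out (0.0222 and 0.0209).

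Of 18 targets of the hedgehog pathway, 2 were called higher in shHdac1 and none higher in shHdac2, against 1.79% and 2.70% of all genes. With the block 9 were higher in shHdac1 and 2 higher in shHdac2, against 14.0% and 16.4% of all genes, and the median log2 difference was 0.148. The list was not split by whether the pathway raises or lowers a gene, so these counts give no direction of pathway activity. The called targets were Prdm1, described above, and Ccnd2. Ccnd2, the cyclin D2 of proliferating granule progenitors, was at 391, 402 and 321 CPM in shHdac1 and 259, 242 and 189 CPM in shHdac2. The groups did not overlap and differed by 0.69 (SE 0.143, edgeR adjusted p = 0.0495), a call close to the threshold that was lost without replicate 1 or 2 of either group (0.126 to 0.205), without shHdac2 replicate 3 (0.0584) and with library totals for scaling (0.0665). Gli1, the transcription factor that reports pathway activity, was at 189.6, 189 and 202 CPM in shHdac1 and 150, 122 and 156 CPM in shHdac2. All shHdac1 libraries were above all shHdac2 libraries, but the difference of 0.44 (SE 0.103) did not pass without the block (edgeR adjusted p = 0.067) and passed with it (edgeR adjusted p = 0.000509).

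In other hedgehog targets the replicate 3 libraries stood out in both groups. Hhip, a decoy receptor induced by the pathway, was at 102, 109 and 236 CPM in shHdac1 and 82.6, 65.6 and 152 CPM in shHdac2, and Ptch1, the receptor that is itself a target, was at 128, 138 and 307 CPM in shHdac1 and 118, 93.2 and 221 CPM in shHdac2. In both genes replicate 3 was the highest library of each group, so the groups overlapped. The log2 differences were 0.58 for Hhip (SE 0.426, edgeR adjusted p = 0.52, 0.000406 with the block) and 0.41 for Ptch1 (SE 0.442, edgeR adjusted p = 0.682, 0.00403 with the block). Mycn, a driver of progenitor proliferation, went the other way in the blocked fit, at 47.4, 46.8 and 62.2 CPM in shHdac1 and 60.7, 55.4 and 79.6 CPM in shHdac2, with -0.32 (SE 0.172, edgeR adjusted p = 0.364, 0.00187 with the block). Ccnd1, cyclin D1, was at 979, 963 and 756 CPM in shHdac1 and 852, 861 and 831 CPM in shHdac2, with 0.08 (SE 0.11, edgeR adjusted p = 0.738, 0.451 with the block and 0.0213 without replicate 3 of both groups). Among 19 tested components of the pathway, 1 was called, in shHdac1, against 1.79% of all genes, and with the block 5 were, all in shHdac1, against 14.0%. The call was Prkar1a, the regulatory subunit of protein kinase A, the kinase that restrains GLI activity. It was at 477, 471 and 471 CPM in shHdac1 and 267, 286 and 287 CPM in shHdac2, with tight groups and a log2 difference of 0.76 (SE 0.0604, edgeR adjusted p = 0.0054, 0.0543 to 0.0747 without replicate 1 or 2 of either group). Its level in shLuc, 458, 466 and 463 CPM, was close to that of shHdac1, and the log2 difference of shHdac2 from shLuc was -0.72 (edgeR adjusted p = 0.00281).

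**Figure D5:**
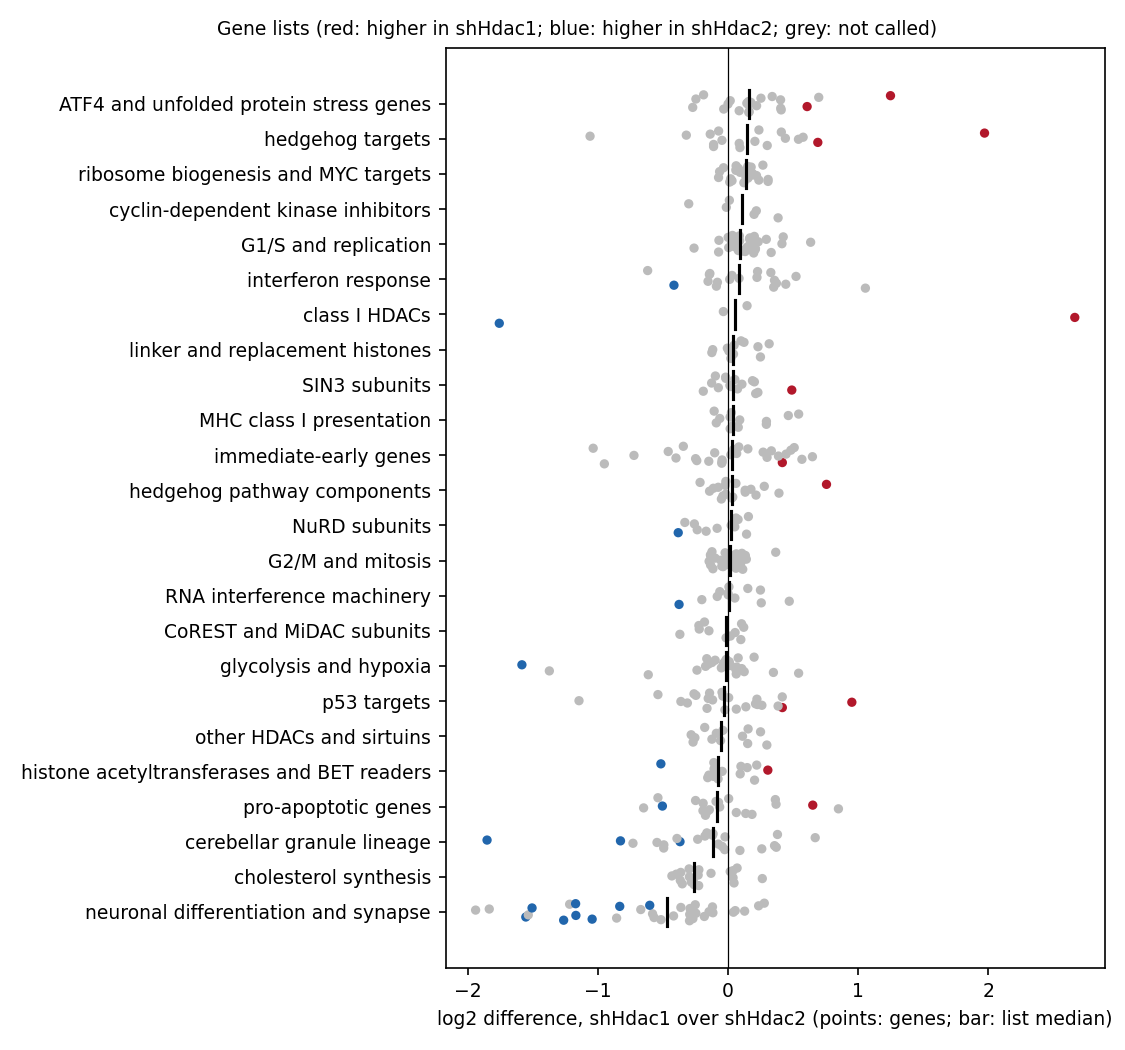
Log2 difference, shHdac1 over shHdac2, for every tested member of the 24 gene lists, with the list median as a bar and called genes in colour. The list of neuronal differentiation and synapse has the lowest median (-0.468) and 8 called members, all higher in shHdac2.

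None of the genes in the 3 cell-cycle lists was called by edgeR in the fit without the block. Ccnd2, called above, was placed with the hedgehog targets and is in none of the 3. Of all 13429 genes, 2684 had an unadjusted p under 0.05. DESeq2 called 608 genes higher in shHdac1 and 816 higher in shHdac2, of 18206 that it tested. Of 37 genes of the G1/S transition and replication, 5 were higher in shHdac1 and 1 higher in shHdac2 at an unadjusted p under 0.05, and 4 and 0 were called by DESeq2. With the block 10 were higher in shHdac1 and 1 higher in shHdac2, against 14.0% and 16.4% of all genes, with a median of 0.0883. Mcm7, a subunit of the replicative helicase chosen after its values were seen, was at 431, 419 and 542 CPM in shHdac1 and 267, 290.2 and 340.3 CPM in shHdac2, with 0.63 (SE 0.134, edgeR adjusted p = 0.0526, 3.31e-05 with the block). Of 34 genes of G2/M and mitosis, 1 each way had an unadjusted p under 0.05 and DESeq2 called 1, higher in shHdac1. With the block 1 was called each way, below the shares of 14.0% and 16.4% of all genes. None of 6 tested inhibitors of cyclin-dependent kinases was called by edgeR or DESeq2, and 3 had an unadjusted p under 0.05. With the block 2 were higher in shHdac1 and 1 higher in shHdac2. Cdkn1a, which encodes p21, was at 88.8, 93.6 and 96.4 CPM in shHdac1 and 69.1, 56.4 and 88.2 CPM in shHdac2, with 0.38 (SE 0.156, edgeR adjusted p = 0.24, 0.00848 with the block and 0.0466 without shHdac2 replicate 3).

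Among the subunits of the complexes that hold HDAC1 and HDAC2, 2 were called, and with lists of this size a single call is above the 4.49% of all genes called. Of 13 NuRD subunits 1 was called, the helicase Chd3, at 85.9, 86.2 and 80.7 CPM in shHdac1 and 115, 108 and 108 CPM in shHdac2, with -0.38 (SE 0.0614, edgeR adjusted p = 0.0257). Of 16 SIN3 subunits 1 was called, Brms1l, at 61.1, 60.8 and 53.1 CPM in shHdac1 and 41.9, 41.7 and 41 CPM in shHdac2, with 0.49 (SE 0.0774, edgeR adjusted p = 0.0254). Of 11 tested CoREST and MiDAC subunits none was called by edgeR or DESeq2, and 3 had an unadjusted p under 0.05. With the block these counts were 1 higher in shHdac1 and 4 higher in shHdac2 for NuRD, 4 and 0 for SIN3, and 0 and 4 for CoREST and MiDAC, against 14.0% and 16.4% of all genes. None of the 13 tested other HDACs and sirtuins was called by edgeR, with 2 at an unadjusted p under 0.05 and 1 call by DESeq2, and with the block Hdac5, Hdac9 and Sirt2 were higher in shHdac2. Over all genes, 2684 of 13429 had an unadjusted p under 0.05, and DESeq2 called 1424 of the 18206 it tested. Among 15 acetyltransferases and BET readers, the coactivator Ncoa1 was higher in shHdac2 (-0.52, edgeR adjusted p = 0.0182) and the acetyltransferase Kat5 higher in shHdac1 (0.30, edgeR adjusted p = 0.0482). With the block 3 of the 15 were higher in shHdac1 and 2 higher in shHdac2. Without replicate 1 or 2 of either group, Chd3, Brms1l, Ncoa1 and Kat5 had an adjusted p of 0.084 to 0.229. Brms1l was also lost without shHdac2 replicate 3 (0.0514), and Kat5 without replicate 3 of shHdac1 (0.0679) or shHdac2 (0.0658) and under several other settings.

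Lists that read stress and the response to the hairpin itself held 0 to 2 calls each, against 1.79% of all genes higher in shHdac1 and 2.70% higher in shHdac2. In lists this short even 1 call exceeds those shares. The RNA interference machinery had 1 call of 12, Ago1, an Argonaute that binds small RNAs, at 98.5, 103 and 106 CPM in shHdac1 and 127, 144 and 129 CPM in shHdac2, with -0.38 (SE 0.071, edgeR adjusted p = 0.0395). The interferon response had 1 of 19, Eif2ak2, the RNA-activated kinase PKR, at 34.03, 35.3 and 39.02 CPM in shHdac1 and 47.8, 50.4 and 46.5 CPM in shHdac2, with -0.42 (SE 0.0799, edgeR adjusted p = 0.0413). Both were higher in shHdac2, and for Eif2ak2 the log2 difference of shHdac2 from shLuc was 0.55 (edgeR adjusted p = 0.0209). Of 22 genes of the ATF4 and unfolded protein responses, Vldlr and Edem1 were higher in shHdac1. Edem1, which directs misfolded glycoproteins to degradation, had 0.61 (SE 0.104, edgeR adjusted p = 0.0315). Of 24 p53 targets, Btg2 (0.42, edgeR adjusted p = 0.0189), also an immediate-early gene and the only call of 28 such genes, and Gadd45b (0.95, edgeR adjusted p = 0.0276) were higher in shHdac1. Among 20 pro-apoptotic genes 1 was called in each direction, with the caspase Casp6 higher in shHdac1 (0.65, edgeR adjusted p = 0.0346). Of 24 genes of glycolysis and hypoxia Ndrg1 was the single call. Without replicate 1 or 2 of either group the adjusted p of Ago1, Eif2ak2, Edem1, Btg2, Gadd45b and Casp6 was 0.0968 to 0.177. Without shHdac2 replicate 3, calls were also lost for Eif2ak2 (0.0512) and Casp6 (0.0563). None of 13 genes of MHC class I presentation was called by edgeR or DESeq2, with 0 at an unadjusted p under 0.05. None of 13 linker and replacement histones was called by edgeR, with 1 at an unadjusted p under 0.05 and 1 call by DESeq2. Over all genes, 2684 of 13429 had an unadjusted p under 0.05, and DESeq2 called 1424 of the 18206 it tested.

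The block raised the counts of these lists too, as it did over all genes, where 14.0% were higher in shHdac1 and 16.4% higher in shHdac2. With it, 5 interferon genes were higher in shHdac1 and 1 higher in shHdac2, and the RNA interference machinery had 4 and 1. The p53 targets had 6 and 2, and the ATF4 and unfolded protein genes 6 and 1. The pro-apoptotic genes had 3 and 5, and the genes of glycolysis and hypoxia 2 and 5. Immediate-early genes had 6 each way. The MHC class I genes had 1 and 0, and the linker and replacement histones 2 and 0.

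Markers of SHH medulloblastoma and granule progenitors were present throughout, with all 12 tested and a summed level of 3250 to 3310 CPM in shHdac1, 2970 to 3280 CPM in shHdac2 and 3800 to 3990 CPM in shLuc. Glial markers were highest in replicate 3 of both groups. The 10 astrocyte and radial glia markers summed to 1270 to 2140 CPM in shHdac1 and 1360 to 2050 CPM in shHdac2, and the 9 oligodendrocyte markers to 68.4 to 292 CPM and 84 to 232 CPM, with Mog and Mag at 0. Olig1, an oligodendrocyte lineage factor, was at 20.1, 22.04 and 214 CPM in shHdac1 and 13.4, 16.7 and 129 CPM in shHdac2, and Gfap, of astrocytes, at 8.35, 8.14 and 54.4 CPM in shHdac1 and 6.58, 6.13 and 29.7 CPM in shHdac2, both highest in replicate 3 of each group. The 11 endothelial, fibroblast and mural markers did part the groups, at 8.13 to 13.4 CPM in shHdac1 and 17.3 to 26.2 CPM in shHdac2 (5.68 to 25.2 CPM in shLuc). Of 8 tested, Cdh5, the cadherin of endothelium, was called at -1.46 (SE 0.26, edgeR adjusted p = 0.0352), from 1.62, 1.503 and 2.501 CPM in shHdac1 and 4.58, 4.83 and 6.09 CPM in shHdac2. The 9 microglial markers summed to at most 1.94 CPM in the 6 knockdown libraries and 3.28 CPM in shLuc, with Tyrobp at 0 in the 6, and the 6 epithelial and blood markers to at most 1.41 CPM, with Hbb-b1 and Hba-a1 at 0. The part of these markers in the differences above was not tested.

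The genes that parted the knockdowns were then looked up in the cells given quisinostat, whose libraries are separate from all 6 knockdown libraries. At 24 h of JNJ, 18.1% of the 14467 genes tested in the drug libraries were higher than in DMSO and 15.1% were lower. Among the 361 genes higher in shHdac2 that were tested there, 120 (33.2%) rose with JNJ and 20 (5.54%) fell, with a median log2 change of 0.451. Among the 241 genes higher in shHdac1, 12 (4.98%) rose and 55 (22.8%) fell, with a median of -0.202. Over the 13394 genes tested in both fits, 16% rose, 16.1% fell and the median was -0.0298. At 2 h, where 9.11% of genes were higher and 4.59% lower, the shares were 13.6% and 1.11% for the genes higher in shHdac2 and 9.54% and 4.98% for those higher in shHdac1.

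Drug response varied with expression level, so the shares were also set within the 4 bins of mean CPM. In the lowest bin 46.5% of the genes higher in shHdac2 rose with JNJ at 24 h, against 28.4% of all genes, and in the highest bin 14.5% did, against 4.92%. For the genes higher in shHdac1 the share that fell was close to that of all genes within each of the 2 upper bins, at 18.8% against 19.4% and 29% against 27.8%. In the 2 lower bins, which hold 9 and 47 of these genes, it was 11.1% against 5.15% and 19.1% against 11.9%. From the lowest bin up, 11.1%, 8.51%, 7.06% and 1% of them rose, against 28.4%, 19%, 11.7% and 4.92% of all genes. Of the genes higher in shHdac2, 5.81%, 3.92%, 5.77% and 7.25% fell, against 5.15%, 11.9%, 19.4% and 27.8% of all genes. Single genes differed widely. Dner (2.35, edgeR adjusted p = 0.00192), Chgb (1.96, edgeR adjusted p = 0.00321), Pak1 (2.47, edgeR adjusted p = 0.000579) and Mapt (2.90, edgeR adjusted p = 0.000127) rose with JNJ at 24 h on the log2 scale. Dcx, also higher in shHdac2, fell (-1.37, edgeR adjusted p = 0.00646). Rcn2 (-1.03, edgeR adjusted p = 0.0059) and Vldlr (-0.95, edgeR adjusted p = 0.0171) fell, and Fndc3b rose (0.53, edgeR adjusted p = 0.0381). Gap43 (-0.23, edgeR adjusted p = 0.436) and Tmem164 (0.13, edgeR adjusted p = 0.759) did not pass the test in the drug comparison.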

How the data were processed

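Total RNA (500 ng) was made into TruSeq Stranded mRNA libraries and sequenced as single-end reads of 75 bases, per the labels' protocols. Alignment used STAR 2.5.1b and mm9, per the submitters' processing notes. The authors deposited raw counts of reads for each gene symbol in each library. No source used here gives the strand counted, the annotation or how multiply mapped reads were handled, so close paralogs and overlapping or antisense genes are uncertain. Of 24047 genes, 5833 had no count in the 6 libraries. In 14 entries the name has the form of a date; they hold 0.266% of the counts and were tested but never named.

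The 6 libraries were fitted with edgeR 4.0.16 in R 4.3.3, with group as the only term. filterByExpr (count of at least 10, total of at least 15) chose the genes, TMM factors (0.979 to 1.02) scaled the libraries, and two-sided quasi-likelihood tests were adjusted by Benjamini-Hochberg over 13429 genes. The biological coefficient of variation was 0.18. Calls were made below an adjusted p of 0.05. At these depths 3 counts are 0.094 to 0.126 CPM. shLuc levels and comparisons come from a fit of all 9 shRNA libraries, and JNJ values from a fit of the 12 drug and solvent libraries. A further fit left out shLuc replicate 3 alone, with replicate 3 of both knockdowns kept and no block. It is unbalanced in replicate number and was not part of the planned comparison with shLuc. The test was also run on simulated counts with less spread than these libraries and no shift by replicate number. That run therefore cannot show how the test behaves when replicate 3 stands apart.

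Libraries of the same number deviated together from their group means (correlations 0.614, 0.49 and 0.802 for numbers 1, 2 and 3). The numbers from the labels were used as the block. Numbers 1 and 2 also correlated with each other across the groups (0.591 and 0.519), with 0.519 above the 0.49 of the matched number 2. These values set number 3 apart and do not show that numbers 1 and 2 are separate pairs. Replicates of a group differed by more than sampling noise. The chi-square per degree of freedom was 4.25 (shHdac1) and 8.76 (shHdac2) between replicates 1 and 2, and 44.9 to 62.7 against replicate 3.

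The groups, gene lists and naming rule were chosen with earlier results of these data known. The rule names the class I HDACs, the 12 called genes with the widest difference and the 5 of lowest p in each direction (mean of at least 5 CPM, no overlap, placeholder names passed over), the 2 called members of lowest p of each list in each direction, and Gli1, Ptch1, Hhip, Mycn, Ccnd1, Atoh1 and Cdkn1a. Other settings were RLE, upper-quartile and total-count scaling, no filter, a mean of at least 5 CPM, DESeq2 1.42.0, limma 3.58.1 with voom, the replicate block, all 9 shRNA libraries and each library left out. Promoter bases are from RefSeq (GRCm38.p6), and no coordinates were moved between builds. Hairpin and protein sequences were not used here. Some genes that the rule names are left out of the text.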

Additional observations from a re-analysis of the deposited data

How the results depend on the processing

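The 603 calls (241 higher in shHdac1, 362 higher in shHdac2) became 4086 (1881 and 2205) with the replicate block, 4316 (1961 and 2355) without replicate 3 of both groups, 1424 (608 and 816) with DESeq2 and 280 (121 and 159) with all 9 shRNA libraries, where 270 of the 603 were called again. Leaving out 1 library gave 11 to 823 calls, 5 to 290 higher in shHdac1 and 6 to 533 higher in shHdac2. Settings chosen after seeing the data, the block without a number in both groups, gave 2024 (788 and 1236) without number 1, 3107 (1402 and 1705) without number 2 and 4302 (1944 and 2358) without number 3. With the other scalings, filters and limma-voom the calls numbered 507 to 601. The cause of these changes was not tested. The share of calls higher in shHdac1 was 40% and ran from 30.4% to 50%. None of the 603 genes changed sign under any of these settings, and Hdac1 and Hdac2 passed in all of them. Of the 42 called genes that the naming rule gives, 42 passed with the replicate block and 42 without replicate 3 of both groups. With all 9 shRNA libraries 31 passed, and those that did not include Ago1, Btg2, Casp6, Ccnd2, Chd3, Gadd45b, Kat5, Ndrg1, Pak1 and Sez6l2. With limma-voom Kat5, Ndrg1, Pak1 and Prdm1 did not pass, and without the filter Eif2ak2 and Kat5 did not. The block also brought Gli1, Hhip, Ptch1, Mycn and Cdkn1a past the threshold, and no other gene of the naming rule.

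Replicates 1 and 2 differed by 4.25 times what counting error gives in shHdac1 and 8.76 times in shHdac2 (chi-square per degree of freedom). Either of them differed from replicate 3 of its group by 44.9 to 62.7 times. The fit without replicate 3 of both groups thus rests on the closest libraries of each group. The labels do not say whether these are separate cultures. Genes with a mean of a few CPM, such as Pak1 and Prdm1, rest on fewer counts. With 3 libraries a side, of which 1 stands apart, the unblocked test loses most calls when a group keeps 1 of replicates 1 and 2.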

Other observations

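Genes of cholesterol synthesis lay mostly on the shHdac2 side. None of 21 was called by edgeR without the block (7 were higher in shHdac2 at an unadjusted p under 0.05, and 2 were called by DESeq2), and with the replicate block 14 were higher in shHdac2 and none higher in shHdac1, against 16.4% and 14.0% of all genes, with a median log2 difference of -0.261. Of all 13429 genes, 2684 had an unadjusted p under 0.05 in either direction. DESeq2 called 816 of the 18206 it tested higher in shHdac2. Nsdhl, a sterol dehydrogenase of the pathway chosen like the next gene after its values were seen, was at 54.8, 54.4 and 55.1 CPM in shHdac1 and 68.9, 77.9 and 64.6 CPM in shHdac2, with -0.36 (SE 0.0827, edgeR adjusted p = 0.0632, 0.00215 with the block). Acly, which makes the acetyl-CoA used for lipid synthesis and histone acetylation, is no member of the list. It was at 401, 403 and 389 CPM in shHdac1 and 655, 688 and 653 CPM in shHdac2, with -0.74 (SE 0.0603, edgeR adjusted p = 0.00559, a call not among the 11 that held without each library), and shLuc, at 661, 661 and 675 CPM, was level with shHdac2. Against shLuc, Acly had -0.74 in shHdac1 (edgeR adjusted p = 0.0048) and almost no difference in shHdac2 (edgeR adjusted p = 0.998).

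Of 28 genes of ribosome biogenesis and MYC targets, 25 lay on the shHdac1 side and 3 on the shHdac2 side, Myc itself among them. By sign alone, the 37 genes of the G1/S transition and replication leaned the same way, with 33 and 4. The median log2 difference of all genes tested was 0.00968. None of the 28 was called by edgeR without the block (9 were higher in shHdac1 at an unadjusted p under 0.05, and 3 were called by DESeq2), and with the replicate block 13 were higher in shHdac1 and none higher in shHdac2, against 14.0% and 16.4% of all genes, with a median log2 difference of 0.139. Of all 13429 genes, 2684 had an unadjusted p under 0.05 in either direction. DESeq2 called 608 of the 18206 it tested higher in shHdac1. Gnl3, the nucleolar protein nucleostemin, also chosen after its values were seen, was at 141, 142 and 131 CPM in shHdac1 and 119.6, 106 and 109 CPM in shHdac2, with 0.31 (SE 0.0724, edgeR adjusted p = 0.0689, 0.0018 with the block).

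Genes called higher in shHdac2 spanned more of the genome than all genes tested in each of 4 bins of mean expression, and those higher in shHdac1 did so in the 2 upper bins alone. In the RefSeq annotation (GRCm38.p6) the median span from start to end was 44.2 kb for 358 genes higher in shHdac2, 33.4 kb for 238 genes higher in shHdac1 and 24.3 kb for 13370 genes tested. Within the lowest bin the medians were 27.9 kb, 12.8 kb (9 genes) and 19.8 kb, and within the second 60.4 kb, 21.3 kb and 21.3 kb. Within the third they were 43.7 kb, 35.4 kb and 26 kb, and within the highest 51.6 kb, 37.8 kb and 29.3 kb.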
